A study of Mus musculus with 16 samples.

Results

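The genes described are 10 that mark or serve border-associated macrophages and the scavenger receptor system: Mrc1, Cd163, Lyve1, F13a1, Ms4a7, Pf4, Stab1, Msr1, Cd36 and Mertk. They were chosen by gene symbol, with earlier results of these data known, and all 10 were found among the 24411 genes of the tables. All 10 also passed the filter for testing, a mean above 1 TPM (a level of transcripts corrected for gene length and library depth) in at least 1 condition, which 16091 genes passed. For 5 of them (Cd163, Lyve1, Pf4, Msr1 and Mertk) the mean was above 1 TPM in every condition. Mrc1, F13a1, Stab1, Ms4a7 and Cd36 passed through the injured conditions alone, so that a difference from the uninjured cord was built into their passing.

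Border-associated macrophages live in the meninges and around blood vessels of the central nervous system, and differ from the microglia of the parenchyma in carrying mannose, hemoglobin and hyaluronan receptors. Scavenger receptors bind modified lipoproteins, oxidized lipids, collagen fragments and debris and carry them into the cell, and Mertk recognizes dying cells through bridging proteins. In an injured cord, macrophages from the blood take up myelin and cell debris for long periods and can carry many of the same receptors, so these genes mark functions and not a single cell type.

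Spinal cord RNA was sequenced from 16 female C57BL/6J mice. Injured mice received a lateral compression with a 0.25 mm gap at vertebral level T8-T9 when 12 weeks old, and from 2 weeks after injury were given daily for 4 weeks either atorvastatin at 10 mg/kg, a statin that blocks cholesterol synthesis (SCI + Atorvastatin, 7 mice), or the DMSO, PEG, Tween and saline vehicle alone (SCI + Vehicle, 7 mice). A 5 mm piece of cord around the injury was taken after perfusion at 6 weeks, and the matching piece came from 2 mice of the same strain and sex with neither injury nor treatment (Uninjured Control). The labels give 12 weeks of age for these too, and by the study's methods they were younger than the injured mice when tissue was taken, so injury, age and daily injection cannot be told apart. Each library is 1 mouse, named below by its replicate number, and the tissue is whole cord, in which fewer cells of a type and less RNA per cell cannot be told apart.

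Library totals ran from 14823292 to 25579826 counts, the lowest being SCI + Vehicle mouse 4. The 2 controls were erratic at low levels: of the 10098 tested genes with a mean count in injured mice between 57.5 and 1461, the range of the 10 genes, 18.6% had 0 counts in exactly 1 control and 9.37% in both, whereas 0.792% had 0 in any of the 14 injured mice. Of the 10 genes, 6 were at 0 in exactly 1 control and 2 in both, and Lyve1 alone was at 0 in an injured mouse. A list of 12 liver genes summed to 7656 and 1334 TPM in the controls and to at most 13.3 TPM in any injured mouse. Macrophages and sinusoids of liver carry several of the 10 genes. Of 10 markers of those cells, 7 were at 0 in both controls and the list summed to 11.8 and 1.23 TPM there, against 1.41 to 95.6 in injured mice, where Cd5l made up most of it (mean 37.3 TPM in SCI + Atorvastatin and 18.4 in SCI + Vehicle). Clec4f, a marker of liver macrophages, had 329 counts (5.98 TPM) in control 1 and 0 in control 2, with means of 0 and 0.044 TPM in the injured groups, and Fcna had 5.35 TPM in control 1 and 0 in control 2. The part of liver RNA in the control values was not tested. SCI + Vehicle mice 4 and 7 stood apart in fibroblast genes. Results of the 10 genes that rest on them are given with and without both, while counts and medians of gene lists use all mice.

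The start regions of the genes were searched for 2 motifs, GAGGAA and TGCTGA, on both strands, and 4 of the windows with a GAGGAA match are shown, those of Mrc1, the defining border marker, and of F13a1, Ms4a7 and Stab1, which were called after injury. RefSeq promoter windows (GRCm38.p6, 250 bases before to 50 after a start, printed 5′ to 3′ on the gene's strand) were matched for 8 of the 10 genes, giving 10 windows, with no entry for Lyve1 and Msr1. Capitals mark GAGGAA, the core bound by the myeloid factor PU.1 and other ETS factors, or its complement TTCCTC.
Mrc1, chr2:14229164-14229463, plus strand: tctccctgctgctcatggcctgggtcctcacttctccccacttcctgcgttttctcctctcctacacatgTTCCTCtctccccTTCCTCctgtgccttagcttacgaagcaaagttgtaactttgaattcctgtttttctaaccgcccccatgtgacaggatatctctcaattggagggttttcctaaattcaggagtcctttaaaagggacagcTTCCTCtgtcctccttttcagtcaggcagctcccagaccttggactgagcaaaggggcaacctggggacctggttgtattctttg
F13a1, chr13:37050195-37050494, minus strand: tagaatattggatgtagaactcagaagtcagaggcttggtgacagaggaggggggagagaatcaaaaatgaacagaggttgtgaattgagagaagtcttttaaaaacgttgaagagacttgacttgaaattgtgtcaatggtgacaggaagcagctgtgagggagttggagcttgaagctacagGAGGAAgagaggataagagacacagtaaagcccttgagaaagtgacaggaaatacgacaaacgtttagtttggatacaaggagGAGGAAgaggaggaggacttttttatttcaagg
Ms4a7, chr19:11336097-11336396, minus strand: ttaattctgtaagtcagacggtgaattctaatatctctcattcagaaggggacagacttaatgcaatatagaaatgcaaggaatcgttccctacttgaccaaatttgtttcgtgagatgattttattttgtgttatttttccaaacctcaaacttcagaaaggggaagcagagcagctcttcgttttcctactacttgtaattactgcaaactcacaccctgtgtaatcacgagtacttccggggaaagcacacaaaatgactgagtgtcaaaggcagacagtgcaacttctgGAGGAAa
Stab1, chr14:31168592-31168891, minus strand: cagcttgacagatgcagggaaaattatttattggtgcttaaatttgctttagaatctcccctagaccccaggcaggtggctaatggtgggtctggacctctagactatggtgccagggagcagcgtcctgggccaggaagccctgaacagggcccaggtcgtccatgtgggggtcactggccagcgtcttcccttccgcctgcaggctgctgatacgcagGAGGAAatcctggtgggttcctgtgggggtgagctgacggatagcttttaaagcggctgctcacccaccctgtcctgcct
The Mrc1 window held 3 matches, that of F13a1 held 2, and those of Ms4a7 and Stab1 held 1 each. The windows of Cd36 and Mertk, which were also called after injury, held 0. Among genes not called, the Pf4 window held 1 and that of Cd163 held 0. Over all windows of the genes, 6 of 10 held GAGGAA on either strand, from 5 of the 8 genes, beside 28.3% of the 32851 windows of all genes. TGCTGA was in 2 of the 10 windows, those of Stab1 and Cd36, beside 19.5% of all. The motifs did not overlap in the Stab1 window, the only one that held both, and a match is a string of letters, not a measured binding site.

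In injured cord, 5 of the 10 genes rose above the uninjured level in both treatment groups, and none fell. F13a1, the A subunit of the clotting transglutaminase factor XIII, and Ms4a7, a membrane protein of border and lesion macrophages, went from no counts in the controls to levels of many TPM. Stab1 and Cd36, both endocytic receptors, rose from close to 0, and Mertk, the receptor for dying cells, rose from a level that was already present in both controls. Mrc1, Cd163, Lyve1, Pf4 and Msr1 did not pass the test, and for each of them 1 control was within, above or near the range of injured mice while the other had few or no counts.

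A gene was called against the controls when edgeR's quasi-likelihood test gave an absolute log2 fold change above 0.322 and an adjusted p below 0.05, over all 16091 genes. SCI + Vehicle against Uninjured Control called 5 of the 10 genes, all higher, beside 19.9% of all tested genes called higher, 9.91% called lower and 29.8% in either direction. SCI + Atorvastatin against Uninjured Control called the same 5, beside 24.9% higher, 14% lower and 38.9% in either direction, and 19.3% of tested genes were called higher in both. F13a1, Stab1, Ms4a7 and Cd36 passed the filter through the injured conditions alone, so these shares are not a like background for them. Of 12559 genes above 1 TPM in every condition, tested alone, 1279 were called higher in SCI + Vehicle and 1806 in SCI + Atorvastatin. limma's voom with a separate quality weight for each group, fitted to the same counts, called 0 of the 10 in either comparison and 131 and 145 of all genes. Both comparisons rest on the same 2 control mice and are not independent of each other. In TPM, every injured mouse of either group lay above both controls for 6 genes, the 5 called ones and Mrc1, beside 26.3% of tested genes in SCI + Vehicle and 32.3% in SCI + Atorvastatin.

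**Figure D1:**
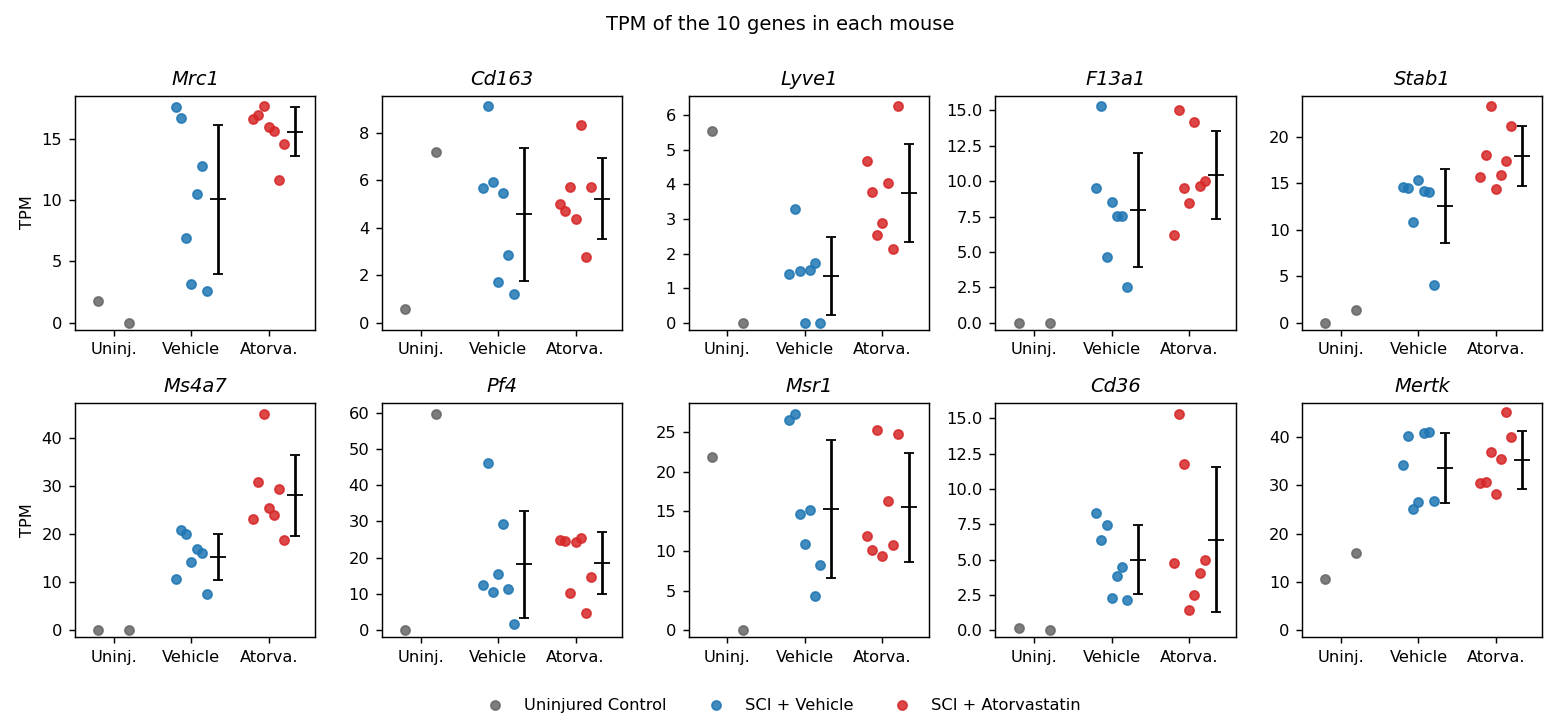
TPM (vertical axis, linear, a separate scale per gene) of the 10 genes in each mouse, 1 point per mouse, for Uninjured Control (grey, 2 mice), SCI + Vehicle (blue, 7) and SCI + Atorvastatin (red, 7); the black bar is the mean ± SD of each injured group. F13a1 and Ms4a7 are at 0 in both controls, while for Lyve1, Pf4 and Msr1 1 control lies at 0 and the other inside or above the range of most injured mice.

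F13a1 (chr13:36867178-37050244, minus strand, GRCm38) had 0 counts in both control libraries. The lowest, median and highest SCI + Vehicle mice had 2.54, 7.52 and 15.28 TPM. In SCI + Atorvastatin these were 6.2, 9.69 and 15.01 TPM. Every injured mouse was therefore above both controls, and the treatment groups overlapped. Against a floor of 3 counts in each control library, F13a1 was at least 98.8-fold higher in SCI + Vehicle (adjusted p = 0.000309) and at least 133-fold higher in SCI + Atorvastatin (adjusted p = 1.02e-05).

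Ms4a7 (chr19:11321039-11336146, minus strand) was also at 0 counts in both controls. It reached 7.58, 15.98 and 20.94 TPM in the lowest, median and highest SCI + Vehicle mice, and 18.87, 25.37 and 44.95 TPM in SCI + Atorvastatin. All 7 SCI + Atorvastatin mice were above the SCI + Vehicle median, and 6 of them were above every SCI + Vehicle mouse, in TPM. Against the same floor, the difference from the controls was at least 69.0-fold in SCI + Vehicle (adjusted p = 0.000121) and at least 102-fold in SCI + Atorvastatin (adjusted p = 4.56e-05). The fitted log2 values that the plot of changes after injury shows for F13a1 and Ms4a7 depend on the prior count. The floors above cover counting error only and do not bound the control level. Mrc1, for example, had 186 counts in control 1 and 0 in control 2.

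Mrc1 (chr2:14229392-14332057, plus strand), the mannose receptor that defines most border macrophages, had 186 counts (1.74 TPM) in control 1 and 0 in control 2. In SCI + Vehicle the lowest, median and highest mice had 2.61, 10.48 and 17.59 TPM, and in SCI + Atorvastatin 11.62, 15.96 and 17.62 TPM. In TPM every injured mouse was above both controls, whereas in CPM (counts scaled for library size), the scale of the test, SCI + Vehicle mice 4 and 7 at 8.17 and 6.12 were below control 1 at 9.34. The test gave a log2 fold change of 2.32 ± 1.34 (SE, adjusted p = 0.219) for SCI + Vehicle and 2.90 ± 1.13 (adjusted p = 0.0663) for SCI + Atorvastatin, so Mrc1 was not called. Set against control 1 alone, mean CPM in SCI + Vehicle was 2.47 times as high, and in SCI + Atorvastatin 3.69 times.

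Cd163 (chr6:124304656-124330527, plus strand), the receptor for hemoglobin bound to haptoglobin, stood at 0.6 TPM in control 1 and 7.18 in control 2. Injured mice ran from 1.21 to 9.14 TPM in SCI + Vehicle, with a median of 5.46, and from 2.76 to 8.33 in SCI + Atorvastatin, with a median of 4.99. The level of control 2 thus lay inside both injured ranges. Neither comparison called it (log2 fold changes 0.74 and 0.90, adjusted p = 0.57 and 0.336).

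Lyve1 (chr7:110850607-110863239, minus strand), a hyaluronan receptor of border macrophages and lymphatic endothelium, was the lowest of the 10 genes in injured cord. It had 5.55 TPM in control 1 and 0 in control 2. SCI + Vehicle mice 4 and 7 were at 0 counts and the other 5 ran from 1.42 to 3.3 TPM, while SCI + Atorvastatin ran from 2.14 to 6.25 TPM. Only SCI + Atorvastatin mouse 7 exceeded control 1, and the log2 fold changes were -0.66 (SE 1.79) and 0.32 (SE 1.20), with adjusted p = 0.820 and 0.865.

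Pf4 (chr5:90772435-90773383, plus strand), the chemokine platelet factor 4, is carried by platelets as well as by border macrophages. Its control values were 0 and 59.61 TPM, the latter above every injured mouse. In SCI + Vehicle the lowest, median and highest values were 1.9, 12.6 and 46.1 TPM, and in SCI + Atorvastatin 4.79, 24.44 and 25.48. The counts behind these values were few, 6 to 141 per SCI + Vehicle library, and the coefficient of variation in that group was 81.2%. Neither injury comparison called Pf4 (log2 fold changes -0.75 and -0.68, adjusted p = 0.723 and 0.692). Of the platelet or megakaryocyte list (Ppbp, Itga2b, Gp1bb and others), 0 of 7 tested genes were called in either injury comparison, its summed level ran from 5.00 to 39.25 TPM in SCI + Vehicle, 8.30 to 22.25 in SCI + Atorvastatin and 30.92 to 33.86 in the controls, and the part of platelets in the Pf4 values was not tested.

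Stab1 (chr14:31139013-31168641, minus strand) encodes stabilin-1, an endocytic receptor of macrophages and sinusoidal endothelium that clears the matrix protein SPARC. Its control values were 0 and 1.37 TPM. In SCI + Vehicle 6 mice lay between 10.88 and 15.38 TPM and mouse 7 at 4.1, and SCI + Atorvastatin ran from 14.33 to 23.25 TPM with a median of 17.34. All injured mice were above the controls, with log2 fold changes of 4.53 ± 1.12 (SE, adjusted p = 0.0119) in SCI + Vehicle and 5.09 ± 0.96 (adjusted p = 0.00211) in SCI + Atorvastatin. Against control 2, the one with counts, mean CPM was 11.8 and 17.2 times as high.

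Msr1 (chr8:39581685-39642673, minus strand), the class A scavenger receptor for modified lipoproteins, was at 21.84 TPM in control 1 and 0 in control 2. Injured levels ran from 4.39 to 27.27 TPM in SCI + Vehicle (median 14.66) and from 9.37 to 25.24 in SCI + Atorvastatin (median 11.94). Control 1 was therefore in the upper range of both injured groups. The log2 fold changes were 1.03 and 1.19 (adjusted p = 0.565 and 0.469), and mean CPM was 1.02 and 1.13 times that of control 1.

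Cd36 (chr5:17781690-17888801, minus strand), a receptor for oxidized lipoproteins and long-chain fatty acids, had 4 and 0 counts in the controls. The lowest, median and highest values were 2.16, 4.49 and 8.29 TPM in SCI + Vehicle and 1.45, 4.79 and 15.3 in SCI + Atorvastatin. Every injured mouse was above the controls (log2 fold changes 6.30 ± 1.20 and 6.74 ± 1.41, SE, adjusted p = 0.00315 and 0.00385). The highest mouse, SCI + Atorvastatin 2, also had the highest summed level of 7 adipose genes, 545.5 TPM against 13.27 to 96.94 in the other injured mice, and of 8 skeletal muscle genes, 3483 TPM. Fat and muscle both carry Cd36, and the part of such tissue in that mouse's value was not tested.

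Mertk (chr2:128698956-128802894, plus strand), a receptor kinase that takes up dying cells and myelin debris through Gas6 and protein S, is also carried by microglia and astrocytes. It was the only one of the 10 genes with many counts in both controls, 310 and 959, at 10.54 and 15.99 TPM. SCI + Vehicle ran from 25.16 to 40.93 TPM (median 34.08) and SCI + Atorvastatin from 28.18 to 45.17 (median 35.4). The groups of injured mice overlapped almost fully and both were above the controls, by log2 fold changes of 1.07 ± 0.36 (SE, adjusted p = 0.0477) and 1.18 ± 0.32 (adjusted p = 0.0149). The first of these calls was the least secure of the 5. It was lost when any 1 of SCI + Vehicle mice 1 to 6, or control 1, was left out. It was also lost when only genes above 1 TPM in every condition were tested.

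**Figure D2:**
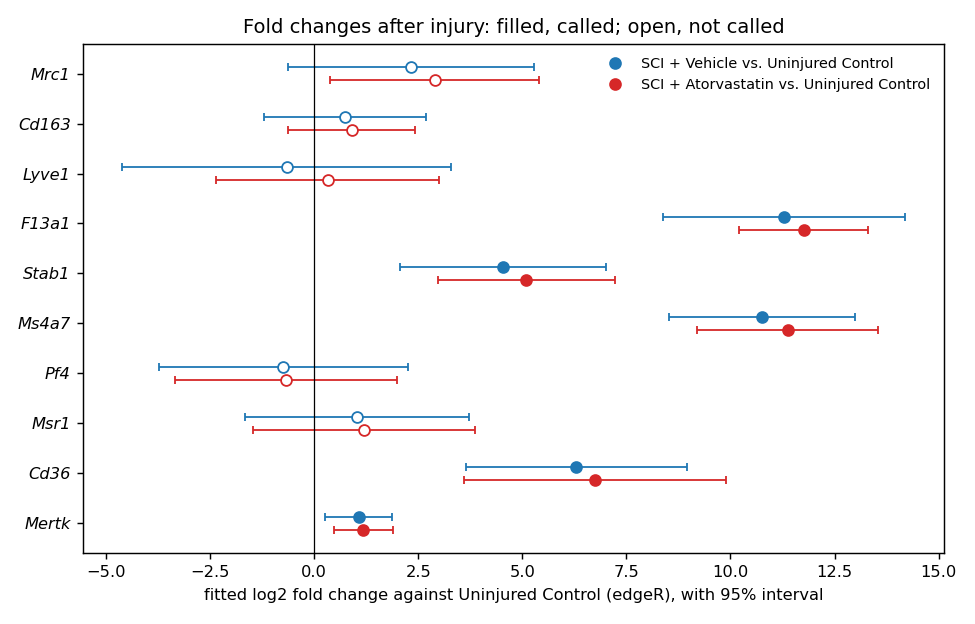
Fitted log2 fold change against Uninjured Control (horizontal axis) with its 95% interval for SCI + Vehicle (blue) and SCI + Atorvastatin (red), 1 row per gene, filled where called. F13a1, Stab1, Ms4a7, Cd36 and Mertk are filled in both colors, and the intervals of Cd163, Lyve1, Pf4 and Msr1 span 0 in both.

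Leaving out a control changed calls of the 6 genes other than F13a1, Stab1, Ms4a7 and Cd36. Without control 1, the count went from 5 to 6 in SCI + Vehicle and to 9 in SCI + Atorvastatin, 8 higher and Pf4 lower. Without control 2 it went to 7 and 8, all higher. In these fits the spread came from the injured mice, and the remaining control was assumed to vary as they did. Pf4 changed direction with it, from a log2 fold change of -0.75 in SCI + Vehicle to 8.75 without control 2, and Lyve1 from -0.66 to 8.35 without control 1. The other 4 were called, all higher, with either control left out.

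In level per transcript length, Mertk was the highest of the 10 in injured cord, with mean ± SD of 33.45 ± 7.24 TPM in SCI + Vehicle and 35.2 ± 6.02 in SCI + Atorvastatin (n = 7 each). In SCI + Vehicle the order by mean TPM then ran Pf4 (18.2), Msr1 (15.3), Ms4a7 (15.2), Stab1 (12.5), Mrc1 (10.0), F13a1 (7.94), Cd36 (4.99), Cd163 (4.57) and Lyve1 (1.35). The ranges of every pair of neighbors in that order overlapped. In SCI + Atorvastatin Ms4a7 came second at 28.1 TPM, followed by Pf4 (18.5), Stab1 (17.9), Mrc1 (15.6) and Msr1 (15.5).

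The comparison of the treatments asks whether delayed atorvastatin moved these genes in injured cord. No gene was called between SCI + Atorvastatin and SCI + Vehicle at the study's limits, an absolute log2 fold change above 0.322 with an unadjusted p below 0.001, which 0.106% of all tested genes met, 0.087% as higher with atorvastatin and 0.0186% as lower. DESeq2 also called 0 of the 10. At an unadjusted p below 0.05, edgeR gave 2, Stab1 and Ms4a7, both higher with atorvastatin, beside 7.03% of tested genes in either direction and 4.02% higher. After adjustment over all tested genes, 0 genes of any kind had an adjusted p below 0.05.

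Ms4a7 was 1.48 times as high with atorvastatin (log2 fold change 0.56, 95% interval 0.11 to 1.02, unadjusted p = 0.0166, adjusted p = 0.680). Stab1 was 1.45 times as high (log2 fold change 0.54, 95% interval 0.09 to 0.99, unadjusted p = 0.0206, adjusted p = 0.680). In TPM all 7 atorvastatin mice exceeded the vehicle median for both, and the ranges overlapped, as they did for all 10 genes (0.0373% of tested genes had every atorvastatin mouse above every vehicle mouse). In CPM this held for Stab1, whereas Ms4a7 in atorvastatin mice 1 and 7 (10.2 each) was below the vehicle median of 10.8. All 7 were above the vehicle median in TPM also for Mrc1 (log2 fold change 0.57, 95% interval -0.05 to 1.20) and Lyve1 (0.97, -0.43 to 2.38). In CPM this held for Mrc1, whereas Lyve1 in atorvastatin mouse 6 (1.80) was below the vehicle median of 1.89.

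F13a1 had a difference of 0.43 (95% interval -0.08 to 0.94) and Cd36 one of 0.42 (-0.39 to 1.23) on the log2 scale. The Cd36 value fell to 0.019 without SCI + Atorvastatin mouse 2, the mouse with high adipose and muscle genes. The values nearest 0 were those of Pf4 at 0.03 (-1.03 to 1.10), Mertk at 0.08 (-0.16 to 0.33), Cd163 at 0.13 (-0.52 to 0.79) and Msr1 at 0.15 (-0.30 to 0.61). The interval of Mertk, the most deeply counted of these 4, was the narrowest. All 10 fitted values were above 0, with a median of 0.43, beside 48.7% of tested genes above 0 and a median of -0.0014 over all of them, and these counts carry no test of their own.

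**Figure D3:**
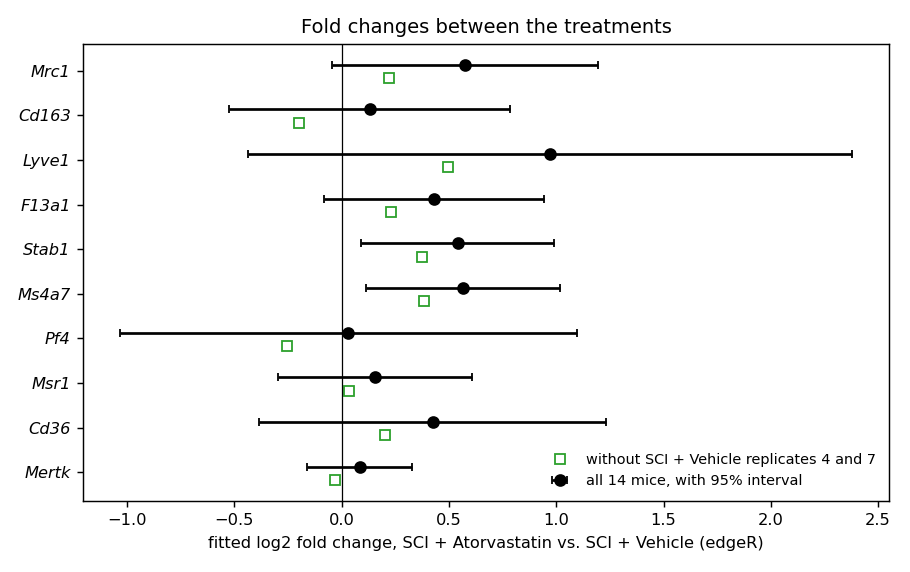
Fitted log2 fold change of SCI + Atorvastatin over SCI + Vehicle (horizontal axis) per gene, with the 95% interval from all 14 injured mice (black) and the value without SCI + Vehicle mice 4 and 7 (green squares). All 10 black points are above 0, and without the 2 mice Cd163, Pf4 and Mertk lie below it.

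Several of these values depended on SCI + Vehicle mice 4 and 7. Mouse 7 was the lowest of its group for 8 of the 10 genes, beside 26.9% of tested genes, and both mice lay below the other 5 for Mrc1, Cd163, Lyve1 and Cd36, 4 genes, beside 9.97%. Mrc1 was at 3.2 and 2.61 TPM in them and at 6.94 to 17.59 in the other 5. Cd163 was at 1.73 and 1.21 TPM against 2.86 to 9.14. Stab1, in contrast, was at 15.38 TPM in mouse 4, the top of its group, and at 4.1 in mouse 7.

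With the 2 mice left out, which was decided after seeing the values, Mrc1 went from 0.57 to 0.22 on the log2 scale and Lyve1 from 0.97 to 0.49. Cd163, Pf4 and Mertk changed sign, to -0.20, -0.25 and -0.03. Stab1 remained higher with atorvastatin at 0.37 (unadjusted p = 0.0123), and Ms4a7 at 0.38 (unadjusted p = 0.0826). Again none of the 10 was called.

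The same 2 mice were low in genes of meningeal or perivascular fibroblasts, the cells that surround border macrophages. The summed level of 9 such genes, including Dcn, Col1a1 and Col1a2, was 140.6 TPM in mouse 4 and 84.99 in mouse 7, against 481.6 to 842.6 in the other SCI + Vehicle mice, 587.4 to 1357 in SCI + Atorvastatin and 166.6 to 185.7 in the controls. All 9 had a fitted value above 0 with atorvastatin, with a median of 0.83, beside 48.7% of tested genes above 0. Of the 9, 7 had an unadjusted p below 0.05, beside 7.03% of tested genes. These values include mice 4 and 7 and were not computed without them. None of the 9 was at 0 in every mouse of a group. Whether the share of fibroblast tissue in a sample set the level of Mrc1, Cd163 or Lyve1 was not tested.

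**Figure D4:**
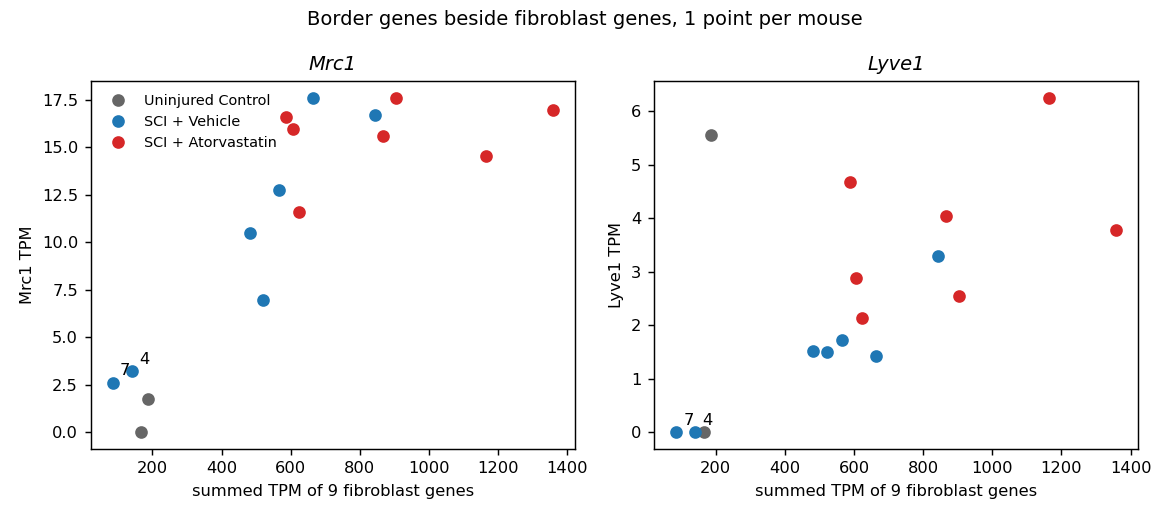
TPM of Mrc1 (left) and Lyve1 (right) against the summed TPM of 9 fibroblast genes (horizontal axis), 1 point per mouse, colored by group, with SCI + Vehicle mice 4 and 7 numbered. Both mice lie at the lower left, with 3.2 and 2.61 TPM of Mrc1 and 0 of Lyve1, near both controls for Mrc1 and near control 2 only for Lyve1, where control 1 is at 5.55.

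Other cell type lists also differed in mice 4 and 7. The 10 liver macrophage or sinusoid genes, of which Cd5l was the highest, summed to 4.2 and 1.41 TPM against 12.68 to 53.37 in the other SCI + Vehicle mice. Red blood cell genes summed to 61.44 TPM in mouse 4 and 523.5 in mouse 7, against 299.4 to 3702. The 12 microglia or macrophage genes summed to 3051 and 2742 TPM against 3225 to 3909 in the other SCI + Vehicle mice. The 15 tested genes of the second border macrophage list are described below, and their full list of 19 summed to 322.8 and 330.0 TPM against 434.9 to 499.9. Blood endothelium stood at 229.7 TPM in mouse 4, inside the range of the other mice, and at 146.0 in mouse 7, below it. Homeostatic microglia genes summed to 849.2 and 695.1 TPM against 899.7 to 945.8. Mouse 7 was above the others in neuron genes (9854 TPM against 6566 to 8600) and oligodendrocyte genes (19108 against 14546 to 16416). Mouse 4 was inside both ranges, at 7402 and 15068 TPM.

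The spread between mice also differed between the treatment groups. For Mrc1 the SD of log2 CPM was 0.258 in SCI + Atorvastatin and 1.06 in SCI + Vehicle, for Lyve1 0.576 and 2.39, and for Stab1 0.283 and 0.760. In 8 of the 10 genes the vehicle group had the larger SD, beside 67.8% of tested genes. Without vehicle mice 4 and 7 it was 6 genes beside 55%, with Mrc1 at 0.502, Lyve1 at 0.549 and Stab1 at 0.272. Ms4a7 and Cd36 were the exceptions among all mice, with a larger SD under atorvastatin (0.472 against 0.397, and 1.05 against 0.655).

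With the injured mice pooled and group means removed, the correlations of the 10 genes from mouse to mouse were above 0, and 1 of them passed its test. Within SCI + Atorvastatin alone, some were below 0. Over the 14 injured mice, with each group's mean removed from log2 CPM, all 45 pairs had a Pearson r above 0, with a median of 0.52. The median was 0.22 within SCI + Atorvastatin, 0.64 within SCI + Vehicle and 0.29 without vehicle mice 4 and 7. The same share and medians were not computed over pairs of other genes, so no background stands beside them. After adjustment over the 45 pairs (100000 permutations within groups, two-sided), 1 pair passed by Pearson r and 0 by Spearman rho.

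That pair was Cd163 and Lyve1, with r = 0.864 (permutation p = 0.00098, adjusted 0.0441) and rho = 0.774 (permutation p = 0.00344, adjusted 0.129). Without the 2 mice farthest from the median of Cd163, which were vehicle mice 4 and 7, r was 0.585, so the relation rests in part on those mice. Mrc1 with Lyve1 had r = 0.901 (permutation p = 0.00535, adjusted 0.0602) and rho = 0.726 (permutation p = 0.0156, adjusted 0.172), and r fell to 0.400 without the same 2 mice. Mrc1 with F13a1 had r = 0.773 (permutation p = 0.0185, adjusted 0.0926) and rho = 0.754 (permutation p = 0.00573, adjusted 0.129), and stayed at 0.784 without them. Within SCI + Atorvastatin, Mrc1 and Cd163 had r = 0.794 and Mrc1 and Mertk r = -0.65 (7 mice, no test). The lowest r in that group was -0.90, for Pf4 and Mertk.

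**Figure D5:**
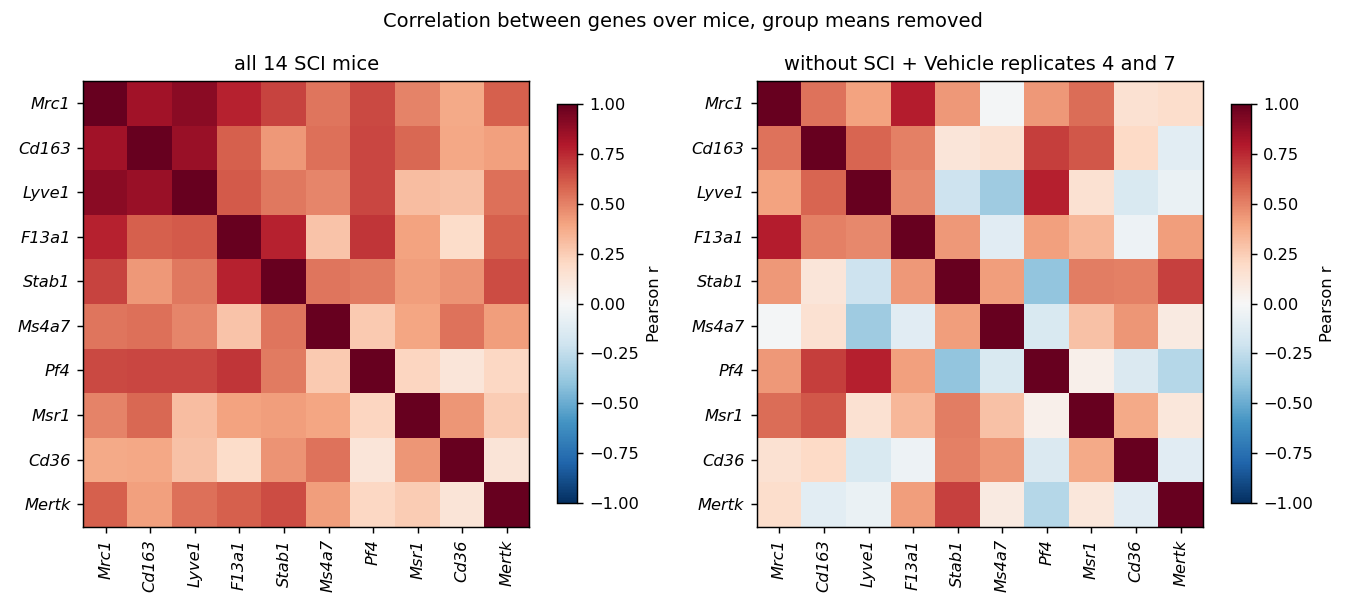
Pearson r (color, from -1 to 1) of log2 CPM between each pair of the 10 genes, with group means removed, over all 14 injured mice (left) and without SCI + Vehicle mice 4 and 7 (right). Every pair is above 0 on the left, with a median of 0.52, and the median on the right is 0.29.

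The genes whose mouse-to-mouse pattern was closest to each gene, of 13990 with a mean of at least 50 counts, were found by the same r over the 14 injured mice, as a description. For Lyve1 these were Slc47a1 (r = 0.964) and Moxd1 (0.960), for Mrc1 Kcnn4 (0.937) and Ogn (0.935), and for Stab1 Col18a1 (0.965) and Hps5 (0.957). Within SCI + Atorvastatin alone the r of Lyve1 with Slc47a1 was 0.541 and that of Mrc1 with Ogn 0.395, whereas Stab1 with Col18a1 was 0.893. Cd163 was nearest to Adam10 (0.926), F13a1 to Cnep1r1 (0.935), Pf4 to St6galnac5 (0.911), Mertk to Hars2 (0.879), Ms4a7 to Cptp (0.876), Msr1 to Chrdl1 (0.851) and Cd36 to Nab2 (0.842).

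Other genes used to mark border macrophages, from a list of 20 of which 15 were tested, were called higher in 9 genes of SCI + Vehicle and 12 of SCI + Atorvastatin, and lower in 0, beside 19.9% and 24.9% of all tested genes called higher. The same shares, and 7.03% for an unadjusted p below 0.05 between treatments, are the background of each list that follows. Their median log2 fold changes were 3.43 and 3.97, beside 0.17 and 0.21 over all tested genes, with 6 of the 15 at 0 counts in both controls. Igf1, a growth factor of macrophages and other cells, rose by 2.75 and 3.27 on the log2 scale, and Colec12, a collectin scavenger receptor also carried by fibroblasts and vessel cells, by 3.43 and 3.97. Gas6, the Mertk ligand, was not called, at 0.00 and 0.07. Between the treatments 0 of the 15 were called, and 14 had a fitted value above 0, beside 48.7% of tested genes. The median was 0.50, and 6 had an unadjusted p below 0.05. These values include SCI + Vehicle mice 4 and 7, which were low in the full list, and were not computed without them.

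Among 16 tested scavenger receptors outside the 10, 9 were higher in SCI + Vehicle, and in SCI + Atorvastatin 11 were higher and 1, Scarf1, was lower, beside 19.9% and 24.9% of tested genes called higher. Cd68, the macrophage lysosomal receptor for oxidized lipoprotein, rose by 6.03 and 6.26 on the log2 scale, from 0 and 72 counts in the controls. Lrp1, the large receptor for many ligands including myelin debris, was called in SCI + Atorvastatin only (0.42, against 0.29 in SCI + Vehicle), and so was the lysosomal Scarb2 (0.36, against 0.23), while the difference between treatments was not called for either (0.11 for both). The list had 2 of 16 with an unadjusted p below 0.05 between treatments, beside 7.03% of tested genes.

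The 22 tested genes of dead cell clearance, the path that Mertk serves, were split: 8 higher and 2 lower in SCI + Vehicle, 10 higher and 3 lower in SCI + Atorvastatin. The examples with the highest levels were Calr, an eat-me signal at the cell surface, which was not called (0.02 and 0.08), the GTPase Rac1, which was not called (-0.12 and -0.15), and Anxa5, a phosphatidylserine binder, called in SCI + Atorvastatin only (0.48, against 0.32 in SCI + Vehicle). The list median was 0.30 and 0.45, beside 0.17 and 0.21 over all tested genes. Between the treatments its median was 0.12, with 6 of 22 at an unadjusted p below 0.05 and 0 called.

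Ligands and partners of the 10 genes numbered 16 tested, of which 6 were higher and 2 lower in SCI + Vehicle, and 9 higher and 2 lower in SCI + Atorvastatin. Thbs2, a thrombospondin of the family that binds Cd36, rose by 1.76 and 1.99 on the log2 scale. Sparc, the matrix ligand of stabilin-1, was not called (-0.09 and -0.04). The 2 lower genes were Hp, haptoglobin, and Hpx, hemopexin, both plasma proteins made by liver, with Hpx at 182.9 and 111.9 TPM in the controls and a mean of at most 0.24 in the injured groups, alongside the liver genes described above. No gene of this list was called between treatments.

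Against a background of 19.9% and 24.9% of tested genes called higher and 9.91% and 14% lower in the 2 injury comparisons, 10 of 12 general microglia or macrophage genes were called higher in SCI + Vehicle and 11 in SCI + Atorvastatin, with median log2 fold changes of 3.52 and 3.66. Of 10 homeostatic microglia genes, 5 were higher in each, and in SCI + Atorvastatin 1 was lower. Of 11 tested genes of blood monocytes or neutrophils, 4 and 7 were higher. Blood endothelium had 0 and 1 of 8 called higher, and the 5 tested lymphatic endothelium genes, of a cell type that also carries Lyve1, had 1 higher in each and 2 and 1 lower.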

How the data were processed

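RNA was prepared by the study from 16 cord samples with a stranded total RNA kit. Per the labels and the study's methods, the authors checked reads with FastQC 0.12.1 and cleaned them with Trimmomatic 0.38. STAR 2.5.4b placed them on mm10, and RSEM 1.3.1, which shares reads between similar genes, estimated each gene. The deposited tables hold 1 unnormalized whole-number count and 1 TPM value for each gene symbol and mouse. How the whole-number counts were made, and whether they were counted by strand, is not given in the sources used here. Counts and TPM did not always match. In Uninjured Control replicate 2, Cd68 had 72 counts with 0 TPM, and Hba-a1 had 394.17 TPM with 0 counts. The reason was not tested.

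Groups came from the treatment labels. Genes with a mean above 1 TPM in at least 1 condition were tested on the deposited counts with edgeR 4.0.16 (R 4.3.3, TMM scaling, quasi-likelihood test, Benjamini-Hochberg adjustment), each pair of conditions in a fit of its own, and SE and 95% intervals come from those fits. DESeq2 1.42.0 and limma 3.58.1 (log2 of TPM + 1, and voom) were alternatives. Floors used 3 counts per control library and cover counting error only. Correlations used log2 CPM with a prior count of 2. The procedures were tested on simulated counts. All 10 genes were named, and for each list its 3 genes with the highest mean TPM in injured mice (1 such gene is not reported here), while Scarf1, Hp, Hpx and Clec4f were named after their values were seen. The members and lists were chosen with earlier results of these data known, so lists carry counts and medians and no test. Replicate numbers did not pair mice: same-numbered mice of the 2 injured groups had correlations from -0.15 to 0.0871, with 0 numbers above 0.1. No 2 libraries held identical values. Gene positions are from GENCODE M21 (GRCm38) and promoter windows from RefSeq (GRCm38.p6).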

Additional observations from a re-analysis of the deposited data

Results flagged for a closer look

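Over the 10 genes and both injured groups, 20 sets of 7 TPM values were examined for a mouse far from the others, by Dixon's ratio of the gap beside the extreme mouse to the whole range, and chance marks about 1 set in 20. The ratio was above its 95% critical value in 1 of the 20. Stab1 in SCI + Vehicle mouse 7 was at 4.1 TPM, with the other 6 mice of the group from 10.88 to 15.38, a ratio of 0.601. The same mouse was the lowest of its group for 8 of the 10 genes. Without it, the log2 fold change of Stab1 between the treatments was 0.38, against 0.54 with it.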

How the results depend on the processing

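The counts of genes called kept within 1.5 times the reported count under most alternatives. Over all results, 63 of the alternative values for counts were close to the reported ones and 23 were not. The 63 include comparisons of the treatments with 0 genes called, where 0 beside 0 was taken as close. Of the single-gene values 565 kept direction and side of the threshold, 19 lost the call, 14 gained one and 27 changed sign. Against Uninjured Control, 5 genes were called in SCI + Vehicle and 5 in SCI + Atorvastatin. Testing only genes above 1 TPM in every condition gave 0 and 1 of the 5 still tested. Of the called genes 4 are then not tested, and Mertk, which is, lost its call in SCI + Vehicle. voom with group quality weights gave 0 and 0, and the cause was not tested, while an adjusted p below 0.01 gave 3 in SCI + Vehicle. Leaving out 1 mouse gave 4 to 7 and 5 to 9, with 9 without control 1 and 8 without control 2. Between the treatments the count was 0, 2 at an unadjusted p below 0.05, and 0 to 0 with 1 mouse left out.

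Sign changed for Pf4, Lyve1, Cd163 and Mertk. Pf4 in SCI + Vehicle went to 0.89 with limma on TPM and 1.89 with voom, and in SCI + Atorvastatin to 1.15 and 2.24. Lyve1 in SCI + Vehicle went to 1.13 with voom. With 1 mouse left out, log2 fold changes in SCI + Vehicle ran from -0.12 to 3.16 for Cd163, -1.68 to 8.35 for Lyve1 and -1.74 to 8.75 for Pf4, in SCI + Atorvastatin from -0.68 to 9.38 for Lyve1 and -1.68 to 8.84 for Pf4, and between the treatments from -0.022 to 0.34 for Cd163 and -0.17 to 0.42 for Pf4. Without SCI + Vehicle mice 4 and 7, a choice added after seeing the data, the treatment values of Cd163, Pf4 and Mertk were -0.201, -0.254 and -0.0301. The count of correlated pairs, 1, was 0 with log2(TPM + 1), 0 without those 2 mice and 0 to 5 with 1 mouse left out.

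The replicate numbers gave no pairing (1 of 14 mice correlated best with its own number). With the replicate block, the counts were 5, 6 (Mrc1 added) and 0, Lyve1 in SCI + Vehicle was at 0.12, and Pf4 was at 0.88 and 1.24. Limits: only 2 control mice, with many genes at 0 in 1 of them, whole tissue in which cell types are mixed, and low counts for Lyve1 and Pf4, whose treatment intervals were the widest of the 10.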
